A study of Mus musculus with 12 samples.

Results

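The genes described are 4 members of the circadian clock, Arntl, Nfil3, Per2 and Ciart, measured as liver RNA in 12 C57BL/6N mice labelled PXR deficient. They are 4 of 369 rows and were taken by symbol from the authors' deposited tables of selected genes: Arntl, Nfil3 and Per2 from the 336 rows of the comparison of high-fat diet with chow, and Ciart from the 33 rows of the comparison of pregnenolone-16alpha-carbonitrile (PCN) with vehicle. PXR, the pregnane X receptor, is a nuclear receptor for foreign compounds, and PCN is its usual rodent ligand. All 4 groups carried the PXR deficiency, had 3 mice each and entered the diet period at 6 weeks of age. The chow group ate regular chow for 18 weeks and the HFD group ate a high-fat diet for the same time, both without injections. The vehicle group ate the high-fat diet and was injected intraperitoneally with 30% DMSO in corn oil once a day for 4 days. The PCN group ate the high-fat diet and received 50 mg/kg PCN by the same route and schedule. The PXR allele, the sex of the mice and the time of day of sampling do not appear in the labels used here, and Nr1i2, the PXR gene, was not analysed here. Mice are named by the numbers in their labels.

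The clock is a feedback loop of transcription. ARNTL (also called BMAL1) pairs with CLOCK or NPAS2 and switches on genes that carry an E-box in their control regions, among them the Per and Cry repressors, Ciart and the REV-ERB genes, and the repressors then shut that activity off. In a second loop ROR activators and REV-ERB repressors compete for ROR elements in Arntl and Nfil3, so in liver the RNA of those genes peaks far from that of Per2. NFIL3 in turn represses genes with a D-box, which the activators DBP, TEF and HLF switch on.

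The letters of the elements named above were searched in RefSeq sequence of GRCm38.p6, which has windows for 3 of these genes. The windows, for Arntl, Nfil3 and Ciart, are of 300 bases around a start. Matches are shown because the loops described above put Arntl and Nfil3 under the ROR element and Ciart under the E-box. Capitals mark the matched motif, each line reads 5′ to 3′ on the strand of the gene, and motifs were searched on both strands.
Arntl, first site, chr7:113207494-113207523, plus strand: tggtcggaaagTAGGTTAgtggtgcgacat
Arntl, second site, chr7:113207530-113207559, plus strand: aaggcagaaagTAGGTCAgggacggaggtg
Nfil3 site, chr13:52981034-52981063, minus strand: ggcgctcggaacTGACCTActaacacacat
Ciart upstream of its annotated starts, chr3:95882252-95882478, minus strand: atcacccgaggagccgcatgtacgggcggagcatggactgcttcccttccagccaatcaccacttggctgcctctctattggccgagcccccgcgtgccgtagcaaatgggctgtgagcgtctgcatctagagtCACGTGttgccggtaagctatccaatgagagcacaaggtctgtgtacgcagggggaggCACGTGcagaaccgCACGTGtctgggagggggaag

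The Arntl sites lay 43 and 79 bases after the outermost annotated start of the gene, in untranslated exon sequence, and began 36 bases apart. The second site held the ROR core TAGGTCA and the first a form that differs from it by 1 letter, TAGGTTA. In Nfil3 the core was on the opposite strand, where it reads TGACCTA, 25 bases after the annotated start and also in an untranslated part of an exon. Read on that strand, the Nfil3 site shared a run of 10 bases, agtaggtcag, with the second Arntl site. That run was picked as the longest one shared, and it includes the core. It was present in 28 of 32851 promoter windows, 0.0852%, with those of Arntl and Nfil3 among them. The core TAGGTCA by itself was present in 856 windows (2.61%) and TAGGTTA in 1.44%. Ciart carried the E-box CACGTG 3 times, 18, 32 and 90 bases before its outermost annotated start, while 7.15% of all windows held it at least once. The related letters CACGTT were found in 4.68% of windows and those of the D-box, TTANGTAA, in 2.32%, and neither was matched in the Arntl, Nfil3 or Ciart windows. A match describes letters and is not evidence that a factor was bound there.

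The comparison of HFD with chow addressed, per the series title, the effect of high-fat diet on liver RNA in PXR-deficient mice. Arntl and Nfil3 RNA were lower and Per2 RNA higher in the HFD-fed mice, by ratios of group means of 4.52-fold, 2.39-fold and 2.94-fold. The 3 genes were chosen on this comparison, so their values below are a description and no test was made of them. The authors' deposited table gave a log2 fold change of -1.43 for Arntl (adjusted p = 4.48e-05), -1.07 for Nfil3 (adjusted p = 7.83e-05) and 1.35 for Per2 (adjusted p = 3.93e-09). In the same order the log2 ratios of group means were larger in size, at -2.18, -1.26 and 1.56. The adjusted p belong to the deposited values. No row of the deposited table had a smaller size of log2 fold change than 0.6, and the largest adjusted p was 0.0474, that of Mmp2. A call here is an adjusted p under 0.05 in a row of the table. The 336 rows so called were 1.34% of about 24988 genes tested by the authors, with 215 higher (0.86%) and 121 lower (0.484%). The rank by p of Mmp2 was 404, so at least 404 genes (1.62%) passed that threshold, and those that are not rows were not analysed here. In bulk liver, fewer cells of a type and less RNA per cell cannot be told apart. As the time of day of sampling is not in the labels, a difference in level cannot be told apart from one in clock phase or sampling time. This holds for both comparisons.

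Arntl, on chromosome 7 from 113207465 to 113314126 of GRCm38 (plus strand), encodes the activator of the loop. Its normalized count, the read count divided by the authors' size factor for the mouse, was 480.7 in chow mouse 670, 280.3 in mouse 695 and 296.9 in mouse 707. In the HFD group it was 136.5 in mouse 659, 32.3 in mouse 669 and 65.1 in mouse 696. The groups did not overlap: the lowest chow mouse stood 2.05-fold above the highest HFD mouse. As groups, chow mice had 352.6 ± 111.2 and HFD mice 78.0 ± 53.3 (SD, n = 3 each). By this ratio Arntl was ninth among the 121 lower rows, whose median was 1.99-fold. The value of mouse 669 rests on 30 reads, for which the exact 95% Poisson interval is 20.2 to 42.8 reads, and that of mouse 696 on 74 (58.1 to 92.9). These intervals cover counting error only and lie below the 246 reads (216.2 to 278.7) of the lowest chow count. HFD mouse 659 had the most Arntl of its group, and without it the ratio was 7.24-fold.

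Nfil3, on chromosome 13 from 52967209 to 52981073 (minus strand), encodes the D-box repressor. Chow mice had normalized counts of 640.9 in mouse 670, 640.3 in mouse 695 and 363.3 in mouse 707, against 255.7, 212.1 and 219.0 in HFD mice 659, 669 and 696. Again no HFD mouse reached the chow range, but chow mouse 707 stood apart from the other chow mice and was 1.42-fold above the highest HFD mouse. Group values were 548.2 ± 160.1 and 228.9 ± 23.5 (SD, n = 3 each), and without mouse 707 the ratio was 2.80-fold. For Arntl the lowest normalized count in chow was that of mouse 695 instead.

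Per2, on chromosome 1 from 91415982 to 91459324 (minus strand), encodes a repressor of the CLOCK and ARNTL pair. It had 172.9 normalized counts in chow mouse 670, 311.0 in mouse 695 and 272.8 in mouse 707, and 704.0, 779.3 and 741.3 in HFD mice 659, 669 and 696. The highest HFD mouse was 1.11-fold above the lowest, and every HFD mouse was at least 2.26-fold above the highest chow mouse. Chow mice had 252.2 ± 71.3 and HFD mice 741.5 ± 37.7 (SD, n = 3 each). Its ratio ranked 65 among the 215 higher rows, whose median was 2.31-fold. All 3 genes thus separated the groups, as did 334 of the 336 rows (99.4%), which had been selected on the same grouping.

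**Figure D1:**
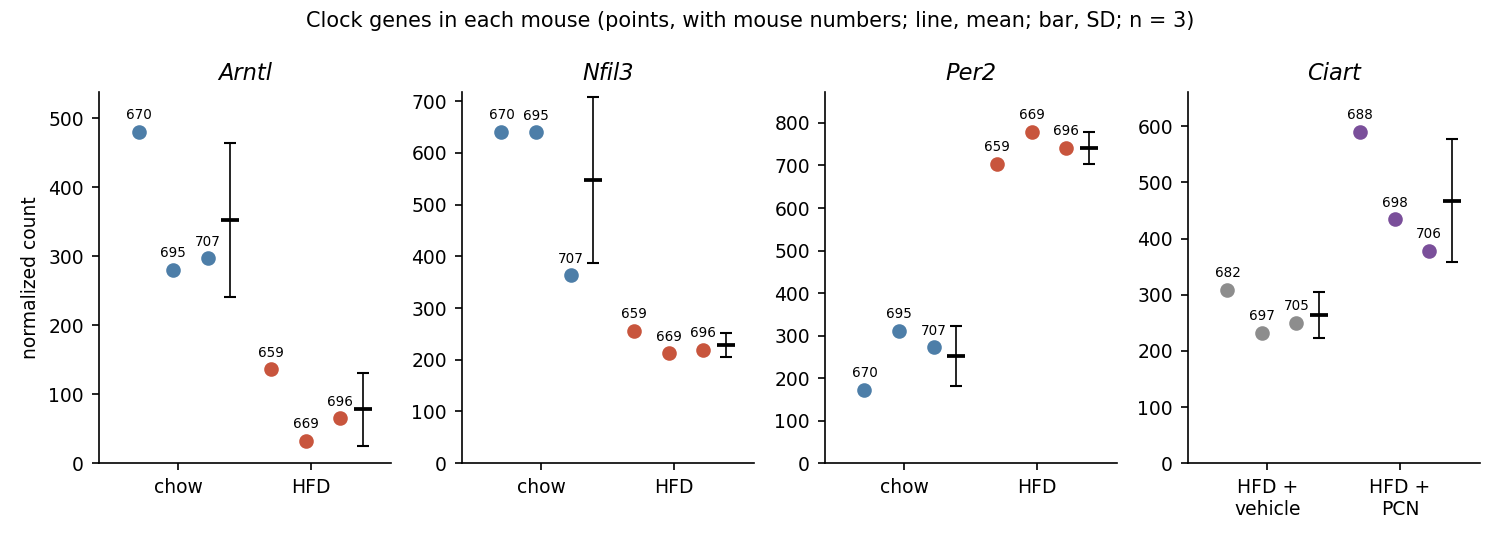
Normalized count (vertical axes, from 0) of Arntl, Nfil3 and Per2 in chow and HFD mice and of Ciart in HFD-fed mice given vehicle or PCN. Points are single mice with their numbers, and the line and bar to their right are the mean and SD of 3 mice. Arntl and Nfil3 are lower and Per2 higher in all 3 HFD mice than in any chow mouse, and Ciart is higher in all 3 PCN mice than in any vehicle mouse.

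Levels of different genes were compared per length of exon. In normalized counts per kilobase of merged GENCODE M21 exons (7523 bases for Arntl, 2026 for Nfil3 and 5856 for Per2), chow mice had 270.6 ± 79.0 for Nfil3, 46.9 ± 14.8 for Arntl and 43.1 ± 12.2 for Per2 (SD, n = 3 each). Arntl and Per2 did not differ beyond their spread there, with levels of 37.3 to 63.9 and 29.5 to 53.1 per kilobase. HFD mice had 126.6 ± 6.43 for Per2, 113.0 ± 11.6 for Nfil3 and 10.4 ± 7.08 for Arntl (SD, n = 3 each). Per2 and Nfil3 overlapped in that group, at 120.2 to 133.1 and 104.7 to 126.2, while Arntl was below both in each mouse, at 4.29 to 18.1. The order Nfil3, Per2, Arntl was seen in chow mice 695 and 707 and in HFD mouse 659, so single mice of both groups shared it.

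Because the members moved in opposite directions, their ratio inside each mouse was also taken from the raw counts, which needs no size factor. Chow mouse 670 had 2.78 Arntl reads for each Per2 read, mouse 695 had 0.901 and mouse 707 had 1.09. In HFD mice 659, 669 and 696 the same ratio was 0.194, 0.0414 and 0.0878. Arntl reads were thus close to or above Per2 reads in every chow mouse and far below them in every HFD mouse. On the log2 scale the group means were 0.48 ± 0.87 and -3.49 ± 1.11 (SD, n = 3 each), a difference of -3.97, or 15.7-fold. Nfil3 reads per Per2 read were 3.71, 2.06 and 1.33 in chow mice 670, 695 and 707 and 0.363, 0.272 and 0.295 in HFD mice 659, 669 and 696. Here the log2 difference was -2.81, or 7.03-fold, and the groups again did not overlap. Arntl and Nfil3 were taken as lower and Per2 as higher, each without overlap. Both ratios to Per2 therefore had to separate the groups and are no further support for a difference. The ratio of Arntl to Nfil3, both genes with a ROR core, did overlap between the groups: it was 0.438 to 0.817 in chow mice and 0.152 to 0.534 in HFD mice, with a log2 difference of -1.16.

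**Figure D2:**
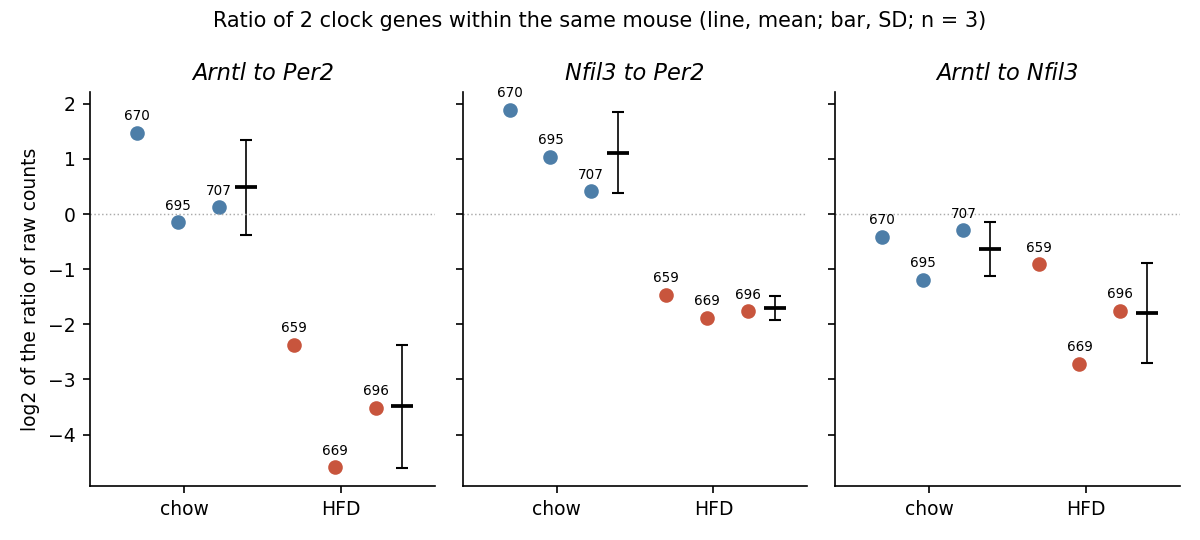
Log2 of the ratio of raw counts of 2 clock genes in the same mouse (vertical axis) for Arntl to Per2, Nfil3 to Per2 and Arntl to Nfil3 in chow and HFD mice. Points are mice, and the line and bar to their right are the mean and SD of 3 mice. The ratios to Per2 separate the groups, as the selection of these genes fixed in advance, with group means of 0.48 and -3.49 for Arntl. The ratio of Arntl to Nfil3 overlaps.

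Mice of the same group were not equally alike for the 3 genes. In the HFD group the coefficient of variation (SD over mean) was 68.3% for Arntl, 10.3% for Nfil3 and 5.08% for Per2, beside a median of 18.0% over the rows of the table. For Arntl 97.3% of rows had a smaller value in these mice, for Per2 5.7%. The chow mice gave 31.5%, 29.2% and 28.3% for Arntl, Nfil3 and Per2, where the median row had 22.1%. Per2 thus varied least and Arntl most among the HFD mice, while the members had similar spread among the chow mice. In mouse 670 Arntl was the highest and Per2 the lowest of the chow group. In mouse 669 Arntl was the lowest, Nfil3 the lowest and Per2 the highest of the HFD group. With 3 mice per group these orders are single observations, and no correlation over mice was computed because the groups form separate clusters.

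**Figure D3:**
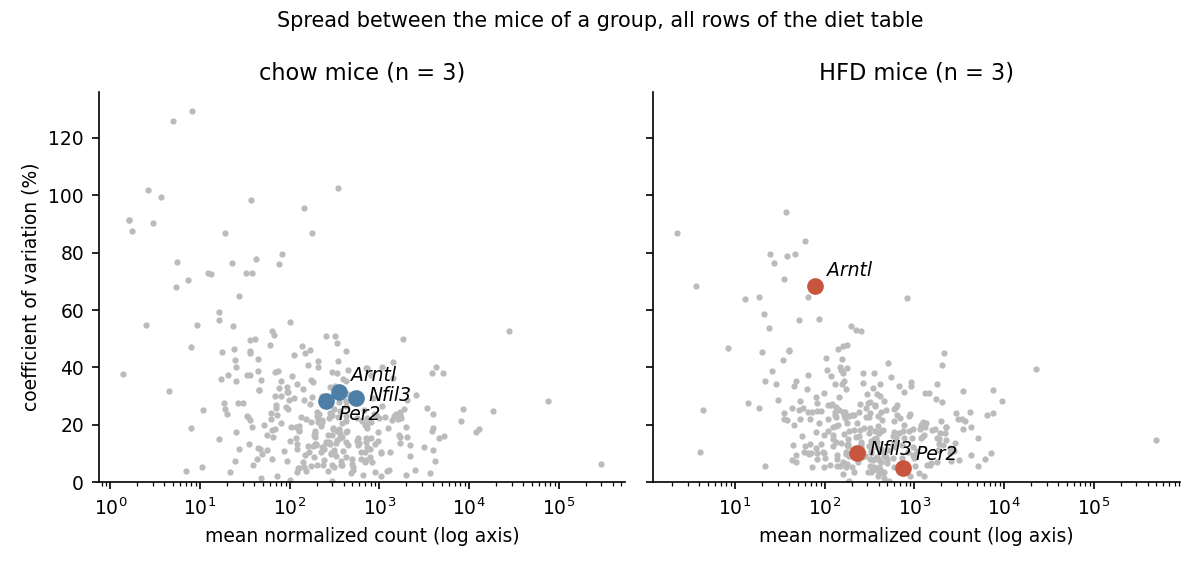
Coefficient of variation between the 3 mice of a group (vertical axis, percent) against mean normalized count (horizontal log axis) for each row of the diet table with a mean above 0, in chow mice (left) and HFD mice (right). Large points are the clock genes. They lie together in chow mice, while in HFD mice Arntl is at 68.3% and Per2 at 5.08%.

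Of 27 genes on lists of clock activators, repressors, the REV-ERB and ROR loop, D-box factors and clock protein turnover, 3 were among the rows of the diet table described here, and these were the members themselves: the authors' test called 1 higher (Per2) and 2 lower (Arntl and Nfil3). The other 24, which include Clock, Npas2, Per1, Per3, Cry1, Cry2, Nr1d1, Nr1d2, Dbp, Tef and Hlf, were not analysed here. An antisense gene, Gm45355, shares 33 exon bases with Arntl. Whether counting used strand is not stated in the labels, so reads in that stretch cannot be told apart.

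Of 35 genes known to be rhythmic in liver, 9 were called higher and 1 lower on HFD, and those that are not rows were not analysed here. Over all genes tested, 0.86% were called higher and 0.484% lower. The list was chosen with earlier results of these data known, so its count is not evidence about rhythmic genes as a set. The median ratio of the 10 rhythmic genes called was 1.996-fold, beside 1.85-fold over all 336 rows. Both medians mix higher and lower genes in unlike shares, so they do not compare sizes of change. The 215 higher rows alone had a median of 2.31-fold. Wee1, a cell cycle kinase gene under E-box control, had 56.7, 81.6 and 65.2 normalized counts in chow mice 670, 695 and 707 and 174.4, 207.8 and 125.7 in HFD mice 659, 669 and 696, which is 2.50-fold higher (1.604-fold with TMM over the rows held). Cyp2a4, a steroid hydroxylase gene and target of the D-box activator DBP, was 10.98-fold higher (7.11-fold with TMM over the rows held), at 22.5 to 25.9 in chow mice and 205.1 to 387.8 in HFD mice. Reads of similar Cyp2a genes may be shared with it, which could not be checked.

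Of the rhythmic genes of lipid and sugar metabolism, Srebf1 (2.89-fold), Pklr (2.04-fold), Elovl6 (1.95-fold), Fasn (1.91-fold), Slc2a2 (1.86-fold) and Scd1 (1.64-fold) were higher, and the fatty acid hydroxylase gene Cyp4a14 was 3.34-fold lower. With TMM over the rows held the higher genes came to 1.87-fold (Srebf1), 1.31-fold (Pklr), 1.26-fold (Elovl6), 1.22-fold (Fasn), 1.20-fold (Slc2a2) and 1.06-fold (Scd1), and Cyp4a14 to 5.27-fold lower. Thrsp, a lipogenic regulator gene, was 10.04-fold higher (6.502-fold with that TMM scaling), with 107.5, 761.3 and 181.0 in chow mice 670, 695 and 707 and 2763 to 3978 in HFD mice. Without chow mouse 695 its ratio was 24.4-fold, and the authors' deposited table gave a log2 fold change of 0.95.

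**Figure D4:**
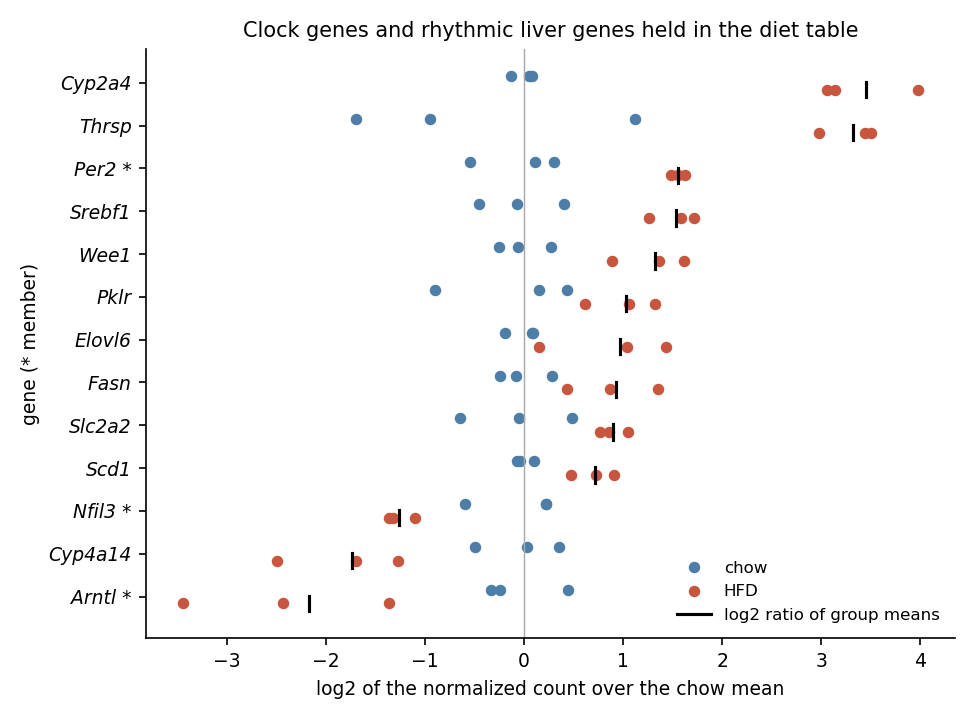
Log2 of the normalized count of each mouse over the chow mean (horizontal axis) for the clock genes and rhythmic liver genes that are rows of the diet table, with members starred. Blue points are chow mice, red points HFD mice and black ticks the log2 ratio of group means. Cyp2a4 is highest at 10.98-fold and Arntl lowest at 4.52-fold below chow.

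The rows with the profile most like each member over the 6 mice were named by the mean absolute difference between log2 normalized counts (0.5 added) after each gene's own mean was subtracted, among 311 other rows. For Per2 these were Ccdc57 (0.072), Gbp10 (0.108) and Cfap54 (0.131), where the median row differed by 0.493. Clpx (0.12), a mitochondrial chaperone gene, the monocarboxylate transporter gene Slc16a1 (0.189) and Rhod (0.19) were nearest to Nfil3, with a median of 1.04. Arntl had no row as near: Ehhadh (0.418), a peroxisomal oxidation gene, the vasopressin receptor gene Avpr1a (0.447) and Cyp4a31 (0.459) came first, with a median of 1.61. In all 3 of these rows, as in Arntl, mouse 670 was the highest of the chow group and mouse 659 the highest of the HFD group. Avpr1a, for example, had 641.9 in mouse 670 against 300.5 and 318.6 in the other chow mice, and 70.5 in mouse 659 against 44.1 and 44.9. All rows compared had been selected for a group difference. The rows named were picked for likeness mouse by mouse, so a shared order of mice is not a separate result.

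Some markers of stellate cells, fibroblasts and macrophages were also among the rows, which had been selected for a group difference. Of 15 stellate cell and fibroblast markers 6 were called higher and 0 lower, and their summed normalized count was 977.3 to 1148 in chow mice and 2328 to 4231 in HFD mice. Of 10 macrophage markers 2 were called higher, Itgax and Mmp12, with sums of 12.5 to 25.3 and 71.2 to 119.3. The markers of both lists that are not rows were not analysed here. Over all genes tested, 0.86% were called higher and 0.484% lower. No held marker was at 0 in a whole group. The lymphocyte, endothelial, cholangiocyte and hepatocyte lists had 0 rows, so the tissue label could not be checked on them. The part of these cells in the values of Arntl, Nfil3 and Per2 was not tested.

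The comparison of PCN with vehicle addressed, per the series title, the effect of PCN on liver RNA, here in HFD-fed mice deficient in PXR. Ciart, the only one of the 27 clock genes among its 33 rows, was 1.77-fold higher in PCN-treated mice by the ratio of group means, with an adjusted p above the threshold of 0.05 used for calls here. The authors' deposited table has rows with an adjusted p of up to 0.09547, and Ciart is 1 of 6 rows that are not under 0.05. It lies on chromosome 3 from 95878503 to 95882251 (minus strand) and encodes a repressor that acts on the CLOCK and ARNTL pair. Vehicle mice 682, 697 and 705 had normalized counts of 309.2, 231.9 and 250.5, and PCN mice 688, 698 and 706 had 590.2, 434.0 and 378.7. The groups did not overlap, with the lowest PCN mouse 1.23-fold above the highest vehicle mouse, and 33 of the 33 rows (100%), which were selected on this grouping, also did not overlap. Group values were 263.9 ± 40.4 and 467.6 ± 109.7 (SD, n = 3 each), with coefficients of variation of 15.3% and 23.5%. Mouse 688 had the most Ciart, and without it the ratio was 1.54-fold.

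In the authors' deposited table Ciart had a log2 fold change of 0.63, below the log2 ratio of its group means (0.83). Its adjusted p there was 0.05703, the first value above 0.05, while the last below it was that of Tat (0.03326). The 27 rows called were 0.107% of about 25294 genes tested, with 17 higher (0.0672%) and 10 lower (0.0395%). The rank by p of Tat was 31, so at least 31 genes (0.123%) passed. Among the 21 higher rows Ciart had the ratio ranked 19, and their median was 2.07-fold. Its exons share 0 bases with those of C920021L13Rik, an antisense gene that spans it. Arntl, Nfil3 and Per2 were not analysed here under PCN, so no ratio of an activator to a repressor could be formed in those mice. The tables share no mouse and were normalized separately, so Ciart cannot be placed beside the diet values.

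Tat, the tyrosine aminotransferase gene, had the profile most like that of Ciart among 25 other rows (mean absolute log2 difference 0.076, against a median of 0.429). It had 15569, 11373 and 11469 normalized counts in vehicle mice 682, 697 and 705 and 32279, 19666 and 19133 in PCN mice 688, 698 and 706. In both genes mouse 688 was highest of the PCN group and mouse 682 of the vehicle group, a likeness that the choice of Tat by profile favours. Slc8a1 (0.111), a sodium-calcium exchanger gene, and Retreg1 (0.216) followed. Of the 35 rhythmic liver genes 2 were called higher with PCN, Tat (1.85-fold) and the glycogen-targeting gene Ppp1r3c (4.06-fold), and 1 lower, Cyp2a4 (2.21-fold). With TMM over the rows held these were 1.31-fold and 2.86-fold higher and 3.10-fold lower. Over all genes tested, 0.0672% were called higher and 0.0395% lower, and the list was chosen with earlier results of these data known. Ppp1r3c also held an E-box in its promoter window, 52 bases before its start. Of the 10 macrophage markers Cd163 alone was called, at 503.2 to 689.7 with vehicle and 938.2 to 1286 with PCN, and its part in the Ciart values was not tested.

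All ratios depend on how libraries are scaled. With TMM over the rows held, which centres the folds on selected genes, the ratios were 7.19-fold lower for Arntl, 3.73-fold lower for Nfil3, 1.90-fold higher for Per2 and 1.26-fold higher for Ciart, and with DESeq2 size factors over those rows Ciart was 1.13-fold higher. Directions of the 4 members did not change under any scaling tried, which was so for nearly all rows. With DESeq2 size factors over the rows held, 2 of the 336 diet rows and 0 of the 33 PCN rows changed sign. With TMM or unscaled counts 0 rows did. edgeR's quasi-likelihood test used size factors recovered from the authors' means, with adjustment to the number of genes they tested. It called 0 of Arntl, Nfil3 and Per2 and 9 of the 336 diet rows. At an unadjusted p under 0.05 it called 3 of them and 330 rows, which is every row that its filter for low counts kept. DESeq2 over the rows held, with the same adjustment, called the 2 lower members, Arntl and Nfil3, and not Per2. Of all diet rows it called 136, with 15 higher and 121 lower. edgeR with TMM called 3 and 186 of the 336 rows. Its p-values were adjusted over the rows held only, so these counts are not like the others.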

How the data were processed

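Liver RNA of 12 mice, 1 library each, was sequenced. HISAT2, HTSeq, DESeq2 and the build GRCm38 (mm10) are named in the submitters' processing notes, without versions or settings. For each gene the deposited tables hold a raw read count in every mouse, then the authors' mean, log2 fold change, p-value, adjusted p-value and test statistic (a score, per the file headers). Rows are genes the authors had selected, so total depth is unknown. The row counts of a mouse summed to between 547431 and 920106 (diet table) or between 34989 and 103036 (PCN table).

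Size factors were solved from the authors' mean column, with a largest gap of 0.0051 counts, and ran from 0.8286 to 1.1372 and from 0.7373 to 1.2576. The number of genes tested was estimated from p and adjusted p (24976 to 25000 and 25272 to 25317). Ranks came out whole for 40 of the 40 diet rows used but for only 22 of 33 PCN rows, so the PCN number is less certain. The rows with the largest p ranked 404 and 40 by p, so 68 and 7 genes above them are not rows here. Calls are the authors' adjusted p under 0.05, the one test that covered all genes. A permutation of 3 mice against 3 cannot go below p = 0.1 and none was run. Whether p-values cover more than the spread between these mice cannot be told.

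Motifs were searched in RefSeq windows of GRCm38.p6, from 250 bases before to 50 after a start, for 32851 windows, which covered 3 of the 4 members. Per2 and Wee1 had 0 windows. Gene positions are from GENCODE M21. Another gene of the lists is not reported here. Members, lists and tests were chosen with earlier results of these data known. Genes named were the members, list genes among the rows and the 3 rows most like each member (mean of at least 10, names that are not predicted). Alternatives were other scalings, summaries, tests and leaving out each mouse, run with edgeR 4.0.16, DESeq2 1.42.0, R 4.3.3 and Python 3.11.15. edgeR was also run on simulated data with known changes, whose outcome is not reported here. The spread between simulated mice was taken from the fit to the rows held, so it does not describe the test over all genes.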

Additional observations from a re-analysis of the deposited data

How the results depend on the processing

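Directions of the 4 members and of the 3 within-mouse ratios held under all alternatives run. For the members and the ratios to Per2 the groups did not overlap, so leaving out a mouse could not reverse them. With TMM and with DESeq2 size factors over the rows held, the log2 ratio was -1.90 and -1.92 for Nfil3, 0.92 and 0.90 for Per2, and 0.33 and 0.17 for Ciart. These scalings moved the median log2 ratio of the rows by -0.64 and -0.66 in the diet table and by -0.49 and -0.64 in the PCN table. Unscaled counts moved it by 0.13 and 0.12.

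Leaving out each mouse gave log2 ratios of -2.86 to -1.81 for Arntl, -1.48 to -1.13 for Nfil3, 1.34 to 1.73 for Per2 and 0.62 to 0.96 for Ciart. For Arntl to Per2 the range was -4.53 to -3.42, for Nfil3 to Per2 -3.17 to -2.43, and for Arntl to Nfil3 -1.60 to -0.70.

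Rows called on HFD (336, with 215 higher and 121 lower) became 206 at an adjusted p under 0.01 (130 and 76), 9 (8 and 1) with edgeR and the authors' size factors (330 at an unadjusted p under 0.05), 186 with edgeR and TMM (67 higher and 119 lower) and 136 with DESeq2 (15 and 121). For PCN (27, with 17 and 10) the counts were 11, 2 (33 unadjusted), 19 (7 and 12) and 13 (1 and 12). Without each mouse in turn the edgeR counts were 1 (without chow mouse 707) to 7 (without HFD mouse 669) on HFD, and 0 (without PCN mouse 688 or 706) to 8 (without vehicle mouse 705) for PCN. For the 3 clock genes called in the diet table, an alternative added after seeing the data, edgeR gave 0, also without each mouse (0 to 0), and DESeq2 gave 2. The edgeR counts with TMM were adjusted over the rows held only. The other adjusted counts of edgeR and DESeq2 were adjusted over all genes the authors tested, so the TMM counts are not like them. Other causes of the gaps between tests were not tested. No paired analysis was possible because the groups share no mouse numbers. Among the members the lowest counts were those of Arntl in HFD mice, at 30 to 151 reads per mouse.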

Other observations

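Of 10 heat shock and cold response genes, Hsp90aa1, which encodes a cytosolic chaperone, was called lower on HFD, at 4057, 3670 and 2388 normalized counts in chow mice 670, 695 and 707 and 1957, 1606 and 2088 in HFD mice 659, 669 and 696. As for Nfil3, chow mouse 707 was nearest to the HFD group. Of 10 immediate early genes Btg2 was called higher, at 149.7 to 184.7 in chow mice and 267.5 to 462.5 in HFD mice. The rest of both lists was not analysed here. Over all genes tested, 0.86% were called higher and 0.484% lower.

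Among the rows with a RefSeq promoter window, the ROR core TAGGTCA was present in 12 of 243 genes of the diet table (4.94%) and 0 of 25 of the PCN table, against 2.97% of all genes with a window. The E-box CACGTG was present in 25 of 243 (10.3%) and 7 of 25, against 8.09%. No test was made of these shares.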
